A study of Arabidopsis thaliana with 36 samples.

Results

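The change in transcript levels between 12 and 36 hours post-gravistimulation (hpg) was compared between root bends of the wild type Col-0 (WT) and of *puchi-1*, as the difference of the 2 temporal changes, (*puchi-1* 36 hpg minus 12 hpg) minus (WT 36 hpg minus 12 hpg). It rests on 12 of the 36 libraries of the series, with 3 biological replicates in each of 4 groups: WT 12 hpg, WT 36 hpg, *puchi-1* 12 hpg, and *puchi-1* 36 hpg. All 25889 genes with at least 15 reads summed over the 36 libraries were tested. The question was which temporal changes are lost, kept, or exaggerated in *puchi-1*. The *Arabidopsis thaliana* seedlings, Col-0 or the loss-of-function mutant *puchi-1*, were grown on vertical plates under continuous light and gravistimulated by turning when 4 days old. The turn bends the root, and lateral root (LR) founder cells are induced at the bend. Each replicate pooled the microdissected bends of more than 400 seedlings, so a library is a mean over many primordia and over the parent root around them. The labels name no transgene and no other treatment, and all 4 groups received the same turn.

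*PUCHI* encodes an AP2/ERF transcription factor that acts in LR primordia of *Arabidopsis*, and primordia of *puchi-1* divide and emerge abnormally. At 12 hpg the pericycle has begun its founder divisions, and by 36 hpg WT primordia have several layers, the more advanced of them dome-shaped. The study staged primordia at 36 hpg as III to VI in WT and II to V in *puchi-1*, so the genotypes are not at matched stages. For selected genes, it judged most shifts to be more than a delay. The part of this delay in the differences below was not tested. Cuticular lipids (very-long-chain fatty acid waxes and the polyester cutin) coat outer plant surfaces. Suberin, a related polyester, is laid down in the endodermis and periderm of the parent root.

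The 12 libraries held 33.5 to 121.6 M counted reads each (M, 1e6 reads), with a median of 47.4 M. Levels are given as CPM (counts per 1e6 counted reads), which are not divided by transcript length. A gene is said to have passed where the edgeR quasi-likelihood test gave an adjusted p under 0.05, and to have been called where its log2 fold change (log2FC) was also beyond 1 or -1. *PUCHI* (AT5G18560, chromosome 5, 6164526-6166040, reverse strand) stood at 18.4, 20.2, and 14.1 CPM in WT at 12 hpg and at 9.8, 10.8, and 11.7 CPM in WT at 36 hpg. In *puchi-1* it stood at 24.4, 22.5, and 25.2 CPM at 12 hpg and at 18.0, 15.6, and 14.6 CPM at 36 hpg. The mutant libraries thus held more *PUCHI* reads than the WT libraries of the same time, without overlap, and a count over the whole gene does not check the mutant label. *PUCHI* fell in both genotypes, with a log2FC of -0.70 in WT and -0.58 in *puchi-1* and a difference of 0.12 ± 0.27 (SE, adjusted p = 0.986). *LBD16*, a marker of pericycle founder cells and primordia, was read in all 12 libraries at 6.21 to 17.9 CPM, a range pooled over both genotypes. The study reported *LBD16* as lower in the mutant than in WT at both times. The range thus does not compare primordium content between the genotypes. *GATA23*, which acts in founder cell specification, was hardly read in WT at 36 hpg, and its levels are given with the early LR regulators. The bends also contain parent root tissue, whose markers are described at the end. In such bulk samples, fewer cells of a type and less RNA per cell cannot be told apart.

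Most of the temporal program ran in the same direction in both genotypes. In WT, 3240 genes (12.5% of those tested) were called between 12 and 36 hpg, of which 1601 (6.18%) rose and 1639 (6.33%) fell. In *puchi-1*, 3670 genes (14.2%) were called, of which 1702 (6.57%) rose and 1968 (7.6%) fell. At any size of change, 36.2% of genes passed in WT (18.9% rose and 17.3% fell) and 33.6% in *puchi-1* (17.7% rose and 15.9% fell). Of the 3240 genes called in WT, 3162 (97.6%) had the same sign of change in *puchi-1*, and 2338 were called there with the same sign. The median ratio of their change in *puchi-1* to that in WT was 0.956. Of the 3670 genes called in *puchi-1*, 3600 (98.1%) had the same sign in WT. The median ratio of their change in WT to that in *puchi-1* was 0.811. Each ratio was taken over genes picked for a large change in its denominator. Only 3 genes were called in opposite directions. The difference of the changes itself was called for 7 genes (0.027% of those tested), 1 (0.00386%) with a more positive change in *puchi-1* and 6 (0.0232%) with a more negative change. Each gene that passed the difference was also called, and 1685 genes (6.51%) had an unadjusted p under 0.05 in it.

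The list of genes called in a single genotype was far longer than the list of genes whose changes were shown to differ. A total of 656 genes were called in WT and did not pass in *puchi-1*, yet 1 of them, *CER3*, passed the test of the difference. Another 1066 genes were called in *puchi-1* and did not pass in WT, and 1 of these, *IAMT1*, passed the test of the difference. For 385 genes (1.49%) the changes were shown to be kept, in the sense that the gene was called in the same direction in both genotypes and the 95% interval of the difference lay between -1 and 1. The remaining genes fell in neither set. A gene not called in both genotypes could not be counted as kept, however narrow its interval. Over the 19094 genes with a mean of at least 1 CPM, the SE of the difference had a median of 0.228 and its 95% interval a median half-width of 0.467 on the log2 scale.

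**Figure D1:**
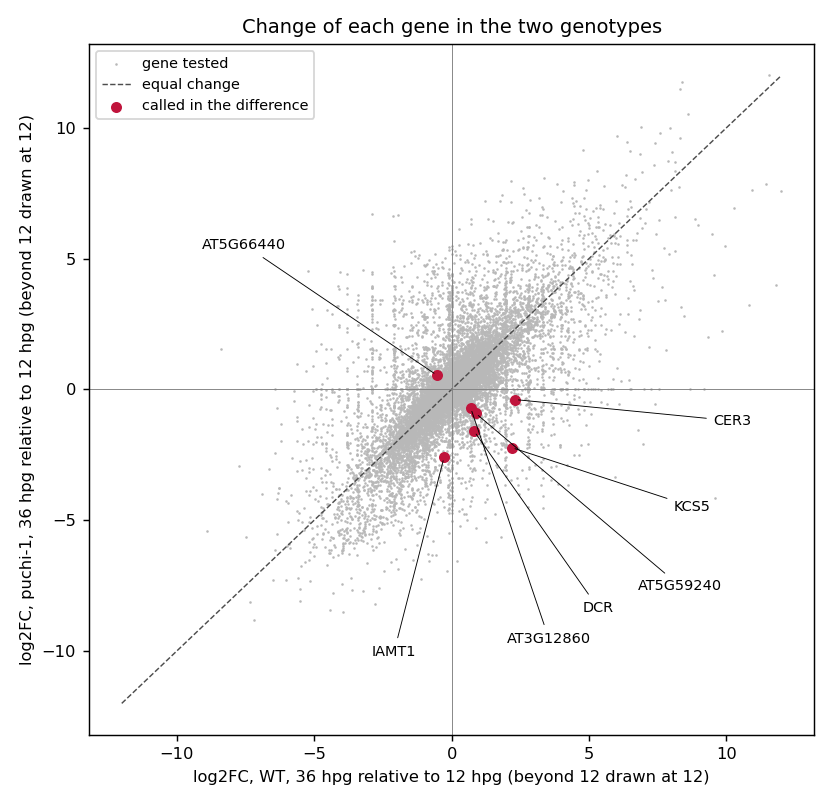
Log2FC of each of the 25889 genes from 12 to 36 hpg in WT (x axis) and in *puchi-1* (y axis), with changes beyond 12 drawn at 12 and a dashed line of equal change. Most genes with a large change lie near the dashed line, and the 7 genes called in the difference (red) lie off it, 6 below and 1 above.

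Of the 7 called genes, 1 was a temporal change lost in *puchi-1*, 5 were changes reversed in sign, and 1 was a change found in *puchi-1* only. No called gene fell among the reduced or the enlarged changes. At an unadjusted p under 0.05 and a log2FC beyond 1, where 559 genes (2.16%) lie, 137 changes were lost, 18 reduced, 11 reversed, 32 enlarged, 172 found in *puchi-1* only, and 189 unresolved. Among the 137 lost changes at that threshold, 98 were rises of WT and 39 were falls, which is a description of genes picked by the same contrast. The study's own tool, DESeq2, called 39 genes in the 36 libraries and 148 in the 12 libraries alone. An edgeR fit of the 30 bend libraries, without the segments of mature root, called 63 genes. Those fits included all 7 genes. An edgeR fit of the 12 libraries alone called 3 genes, *CER3*, *KCS5*, and *IAMT1*, and in it *DCR* (adjusted p = 0.0731), AT5G66440 (0.0828), AT3G12860 (0.194), and AT5G59240 (0.272) did not pass. Beyond those 3, no gene given below as passing in the fit of the 30 bend libraries was called in that of the 12 libraries alone. A contrast of the libraries dated July, within the fit of all 36 libraries, rested on a single library in 3 of the groups. Its result is given with the other settings at the end.

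*CER3* (AT5G57800, chromosome 5, 23420184-23424117, forward strand), which acts with CER1 in making the alkanes of cuticular wax, was the lost change. It stood at 7.83, 10.06, and 8.56 CPM in WT at 12 hpg and at 38.3, 47.3, and 45.0 CPM in WT at 36 hpg. In *puchi-1* it stood at 7.78, 6.91, and 8.79 CPM at 12 hpg and at 5.63, 6.42, and 5.86 CPM at 36 hpg. All 3 WT libraries at 36 hpg lay far above the other 9, which formed a single low range. *CER3* was thus up-regulated in WT (log2FC 2.303 ± 0.24 SE, adjusted p = 3.49e-06) and had a log2FC of -0.39 ± 0.23 in *puchi-1* (adjusted p = 0.204). The difference was -2.69, with a 95% interval of -3.37 to -2.01 (edgeR, adjusted p = 0.000283). It passed in each of the 12 fits that left out 1 library.

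*KCS5* (AT1G25450, chromosome 1, 8938387-8940613, reverse strand), a condensing enzyme of very-long-chain fatty acid elongation, changed in opposite directions. In WT it rose from 1.36, 1.71, and 2.66 CPM at 12 hpg to 8.39, 9.21, and 8.40 CPM at 36 hpg. In *puchi-1* it fell from 2.43, 2.48, and 1.47 CPM to 0.27, 0.788, and 0.343 CPM. The genotypes overlapped at 12 hpg and were separate at 36 hpg, where each WT library exceeded each *puchi-1* library by more than 10-fold. The log2FC of WT was 2.18 (adjusted p = 0.00125). That of the mutant was -2.22 (adjusted p = 0.00151). Their difference was -4.40 ± 0.70 (95% interval -5.84 to -2.96, edgeR, adjusted p = 0.0088). The adjusted p rose to at most 0.0638 when WT 12 hpg replicate 1 or replicate 1 or 3 of *puchi-1* at 36 hpg was left out.

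*DCR* (AT5G23940, chromosome 5, 8076312-8079866, reverse strand) encodes an acyltransferase needed for cutin. It stood at 3.29, 3.21, and 5.54 CPM in WT at 12 hpg and at 5.69, 7.91, and 7.61 CPM in WT at 36 hpg. In *puchi-1* it went from 5.08, 4.30, and 3.14 CPM to 1.58, 1.27, and 1.29 CPM. Each group at 36 hpg was separate from its own 12 hpg group, above it in WT and below it in *puchi-1*. The log2FC was 0.82 in WT and -1.60 in *puchi-1*, with a difference of -2.41 ± 0.40 (edgeR, adjusted p = 0.0139). The call of *DCR* held in 6 of the 12 fits that left out 1 library, with an adjusted p of at most 0.086 in the others.

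**Figure D2:**
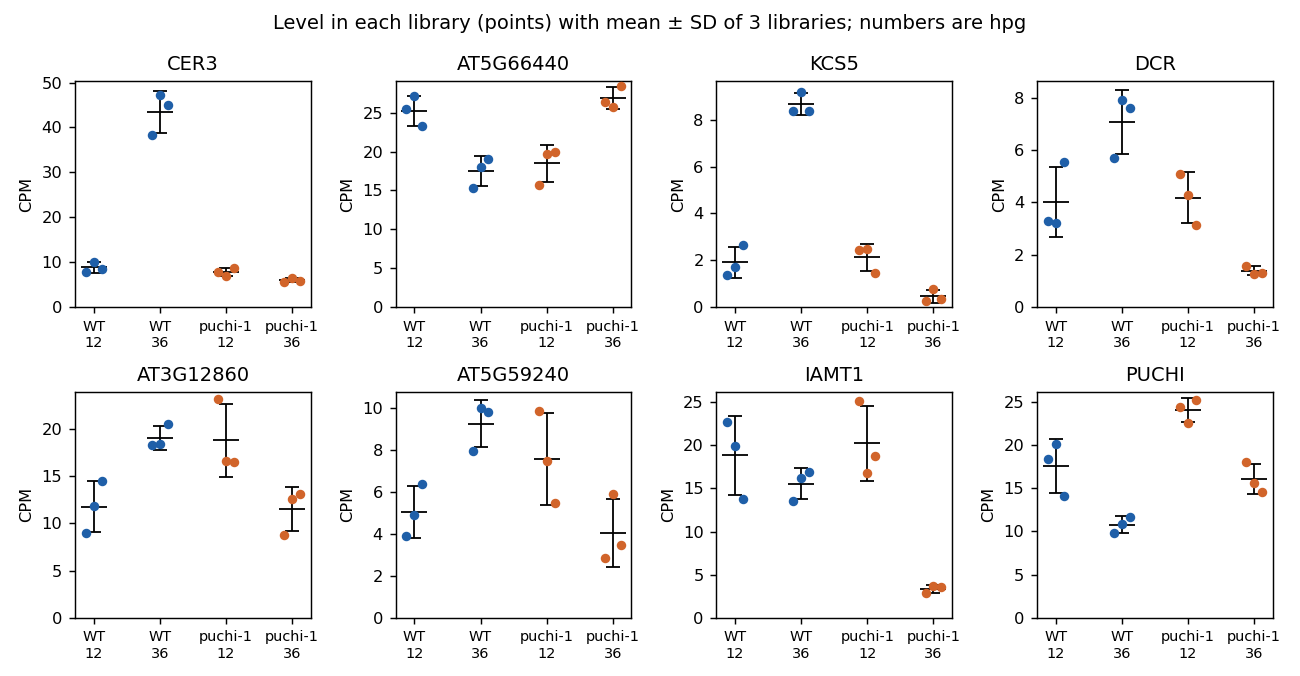
CPM of the 7 genes called in the difference and of *PUCHI* in each of the 12 libraries (points), with the mean and SD of the 3 libraries of a group (bars), for WT (blue) and *puchi-1* (orange) at 12 and 36 hpg. *CER3* is high in the 3 WT libraries at 36 hpg alone, and *IAMT1* is low in the 3 *puchi-1* libraries at 36 hpg alone.

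*IAMT1* (AT5G55250, chromosome 5, 22407427-22410974, reverse strand), which methylates the carboxyl group of the auxin indole-3-acetic acid, changed in *puchi-1* only. It stood at 22.7, 19.97, and 13.8 CPM in WT at 12 hpg and at 13.5, 16.2, and 16.9 CPM in WT at 36 hpg. In *puchi-1* it fell from 25.1, 16.8, and 18.8 CPM to 2.85, 3.68, and 3.53 CPM. The 3 *puchi-1* libraries at 36 hpg lay below all others. The log2FC of WT, -0.28, did not pass (adjusted p = 0.497), whereas that of *puchi-1*, -2.59, did (adjusted p = 5.41e-06). The difference was -2.32 ± 0.43 (edgeR, adjusted p = 0.0420). That call was fragile, since it held in 1 of the 12 fits that left out 1 library, with a highest adjusted p of 0.261, while the difference stayed between -2.50 and -2.13.

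A pair of the reversed genes belong to ribosome production. AT3G12860 (chromosome 3, 4091567-4094195, forward strand) encodes a NOP56-like protein, a core protein of the particles that guide methylation of ribosomal RNA. It stood at 9.02, 11.8, and 14.5 CPM in WT at 12 hpg and at 18.3, 18.4, and 20.5 CPM in WT at 36 hpg, while *puchi-1* went from 23.2, 16.6, and 16.5 CPM to 8.8, 12.6, and 13.1 CPM. The 2 genotypes thus exchanged places, with *puchi-1* above WT at 12 hpg and below it at 36 hpg, and no library out of order. The difference was -1.40 ± 0.25 (edgeR, adjusted p = 0.0414). AT5G59240 (chromosome 5, 23902462-23903767, reverse strand), a ribosomal protein of the S8e family, was at 3.92, 4.89, and 6.38 CPM in WT at 12 hpg and at 7.95, 10.01, and 9.79 CPM in WT at 36 hpg. In *puchi-1* it was at 9.84, 7.46, and 5.46 CPM at 12 hpg and at 2.84, 5.90, and 3.45 CPM at 36 hpg. Its genotypes overlapped at 12 hpg and were separate at 36 hpg, with a difference of -1.78 ± 0.33 (edgeR, adjusted p = 0.0420). Such ribosomal proteins have near copies elsewhere in the genome, and the treatment of multiply aligned reads is not given in the sources used here, so its level is uncertain. The calls of AT3G12860 and AT5G59240 held in 4 and 3 of the 12 fits that left out 1 library, and neither held with the month in the sample titles as a covariate (edgeR, adjusted p = 0.0905 and 0.0653).

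AT5G66440 (chromosome 5, 26529919-26531176, reverse strand), annotated as a subunit of a tRNA methyltransferase, was the single gene with a more positive change in *puchi-1*. It fell in WT from 25.4, 27.1, and 23.3 CPM to 15.4, 18.0, and 19.1 CPM, and rose in *puchi-1* from 15.7, 19.7, and 19.97 CPM to 26.4, 25.7, and 28.4 CPM. The groups did not overlap within either genotype. The difference was 1.07 ± 0.15 (edgeR, adjusted p = 0.00267), and it passed in each of the 12 fits that left out 1 library but not in the edgeR fit of the 12 libraries alone. Among the 10 genes of smallest p, the other 3 had an adjusted p of 0.0567 and did not pass. They were AT2G03850, a late embryogenesis abundant protein (difference -3.23), AT3G15115 (difference -2.09), and *FKD1* (difference -0.90), which is known from leaf vein patterning.

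The intervening time points came from libraries that the contrast did not use at 36 hpg, although they share its 12 hpg libraries. Since the genes were picked by a contrast with those 12 hpg libraries, the sign of their differences at 18, 24, and 30 hpg is no separate evidence. With edgeR, 0 of them passed at 18 hpg (3, *CER3*, *KCS5*, and *DCR*, at an unadjusted p under 0.05), 1 at 24 hpg, and 3 at 30 hpg, and 0, 1, and 3 were also the numbers of all genes that passed at those times. *CER3* passed at 24 hpg (difference -2.56 ± 0.33, adjusted p = 0.000777) and at 30 hpg (difference -2.94 ± 0.33, adjusted p = 5.73e-05). *KCS5* and *DCR* passed at 30 hpg (edgeR, adjusted p = 0.0374 and 0.0379). In WT, *CER3* climbed from 8.82 ± 1.14 CPM (SD, n = 3) at 12 hpg through 18.8 ± 3.99 at 18 hpg, 33.1 ± 6.18 at 24 hpg, and 43.5 ± 1.15 at 30 hpg, while *puchi-1* stayed between group means of 4.98 and 7.83 CPM. For *IAMT1* the differences were -0.27 at 18 hpg, -0.05 at 24 hpg, and -1.43 at 30 hpg. Its mean level went from 18.8 to 9.53 CPM in WT and from 20.2 to 9.86 CPM in *puchi-1* between 12 and 24 hpg, and at 30 hpg stood at 14 CPM in WT and 5.58 CPM in *puchi-1*. AT5G66440 had differences of 0.08 at 18 hpg, 0.01 at 24 hpg, and 0.63 at 30 hpg, and its WT libraries lay above those of *puchi-1* at 12, 18, and 24 hpg and below them at 36 hpg.

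**Figure D3:**
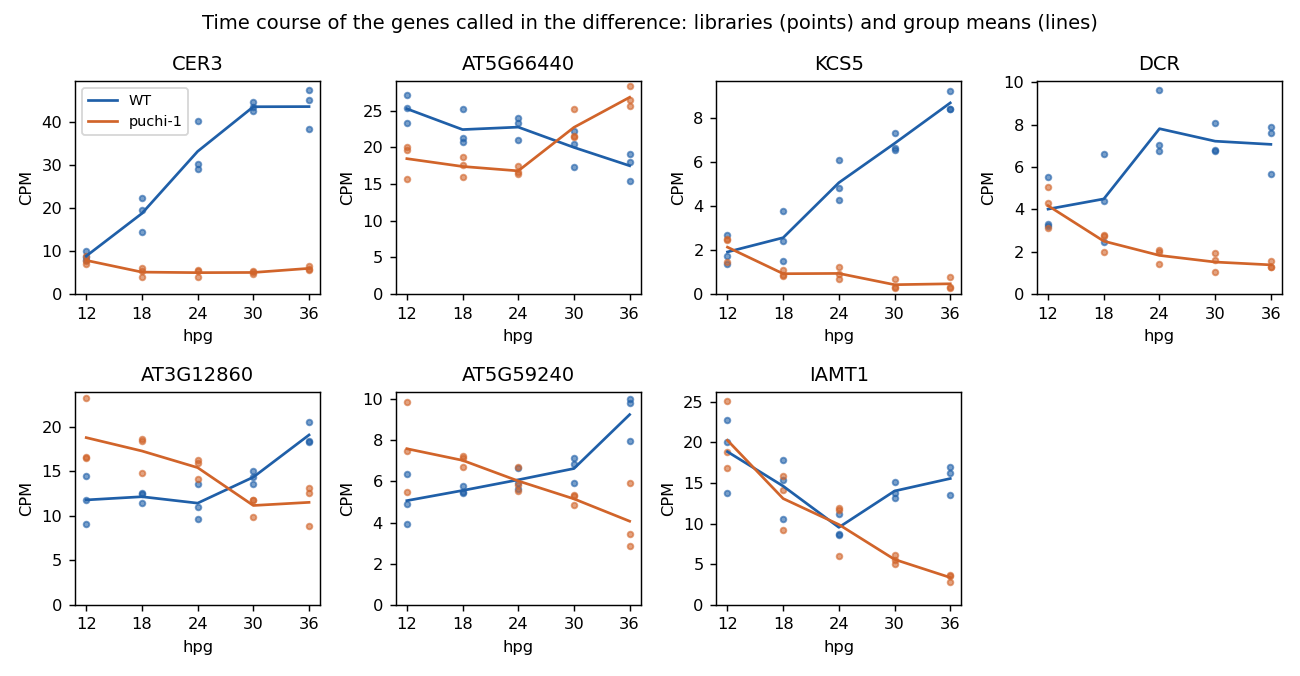
CPM of the 7 called genes in each library (points) and as group means (lines) at the 5 times from 12 to 36 hpg in WT (blue) and *puchi-1* (orange). *CER3* climbs from 12 hpg in WT and stays at or under a group mean of 7.83 CPM in *puchi-1*. The means of *IAMT1* are lower at 24 than at 12 hpg in both genotypes and separate after that, and AT5G66440 starts lower in *puchi-1* and ends higher.

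The 250 bases before the annotated start of each of the 7 genes were searched on both strands for 5 short motifs, chosen after the values were seen. They were the GCC box core (GCCGCC), bound by many ERF factors, the DRE core (CCGAC), the L1 box (TAAATGTA) of epidermal genes, and the telo box (AAACCCTA) and site II (TGGGCC) elements common in genes of ribosome production. Over 25860 promoters of tested genes, 2% held the GCC box core, 12.4% the DRE core, 2.85% the L1 box, 4.06% the telo box, and 14.4% site II. The promoters of *CER3*, *KCS5*, *DCR*, and AT5G66440 held none of the 5 in that window. Those of *CER3*, *IAMT1*, and the ribosome production pair are printed 5′ to 3′ on the strand of the gene (TAIR10.1), because they carry the lost change, the change of *puchi-1* only, and the reversed changes, with any motif in capitals.
CER3, chr5:23419934-23420183, forward strand: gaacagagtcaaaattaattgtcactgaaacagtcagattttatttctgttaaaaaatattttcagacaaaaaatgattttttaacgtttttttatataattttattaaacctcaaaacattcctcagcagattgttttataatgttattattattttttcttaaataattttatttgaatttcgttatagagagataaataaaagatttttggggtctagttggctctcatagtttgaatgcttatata
IAMT1, chr5:22410975-22411224, reverse strand: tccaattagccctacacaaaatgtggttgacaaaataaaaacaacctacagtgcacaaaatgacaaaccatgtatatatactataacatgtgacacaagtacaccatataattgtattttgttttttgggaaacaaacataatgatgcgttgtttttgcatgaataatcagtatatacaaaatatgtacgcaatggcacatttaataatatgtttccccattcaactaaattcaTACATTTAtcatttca
AT3G12860, chr3:4091317-4091566, forward strand: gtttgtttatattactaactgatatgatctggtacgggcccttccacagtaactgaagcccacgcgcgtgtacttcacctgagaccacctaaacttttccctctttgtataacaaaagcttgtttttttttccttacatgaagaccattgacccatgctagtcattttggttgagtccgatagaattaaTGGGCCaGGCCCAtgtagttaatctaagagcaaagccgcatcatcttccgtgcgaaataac
AT5G59240, chr5:23903768-23904017, reverse strand: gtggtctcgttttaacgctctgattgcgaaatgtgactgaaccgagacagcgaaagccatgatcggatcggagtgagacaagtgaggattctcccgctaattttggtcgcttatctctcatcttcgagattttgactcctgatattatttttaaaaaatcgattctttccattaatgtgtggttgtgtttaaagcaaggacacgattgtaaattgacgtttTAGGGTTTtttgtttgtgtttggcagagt
AT3G12860 held 2 copies of site II in opposite orientation, beginning 61 and 54 bases before the start. AT5G59240 held a telo box on the opposite strand 29 bases before the start, and *IAMT1* an L1 box on the opposite strand 16 bases before the start. A match of letters is a description of the sequence, and binding was not measured.

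Of 12 genes for wax synthesis and export, 7 (58.3%, against 18.9% of all genes) rose and 1 fell in WT. In *puchi-1*, 3 (25%, against 17.7% of all genes) rose and 2 fell. The median log2FC was 1.66 in WT and 0.31 in *puchi-1*, beside 0.04 and 0.07 over all genes. The difference lay below 0 for 10 of the 12 genes (all genes, 45.8%), with a median of -1.08, and *CER3* alone passed. *LTPG1*, a lipid transfer protein that helps export wax to the surface, stood at 0.757, 2.62, and 3.79 CPM in WT at 12 hpg and at 47.5, 52.5, and 58.3 CPM in WT at 36 hpg. In *puchi-1* it stood at 2.88, 3.18, and 1.60 CPM at 12 hpg and at 4.80, 9.92, and 4.69 CPM at 36 hpg. It rose in WT (log2FC 4.47), its log2FC in *puchi-1* was 1.32 (adjusted p = 0.11), and the difference of -3.15 ± 0.90 did not pass (adjusted p = 0.445), though it did in the fit of the 30 bend libraries (adjusted p = 0.0156). *ABCG11*, a wax and cutin exporter, and the wax regulator *MYB94* rose in both genotypes, *ABCG11* with a log2FC of 5.86 in WT and 4.82 in *puchi-1*. *CER1*, the partner of CER3, fell in both, with a log2FC of -2.99 in WT and -3.05 in *puchi-1*. The median difference of the list ranged from -1.84 to -0.51 when 1 library was left out, the lowest without WT 12 hpg replicate 2 and the highest without *puchi-1* 12 hpg replicate 3.

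The genes of cutin divided. Of 13 genes, 7 rose and 0 fell in WT, and 5 rose and 1 fell in *puchi-1*, with *DCR* the only member to pass the difference. *GPAT6*, *CYP86A2*, and *LACS2*, which make and activate the hydroxylated acids of cutin, rose in both genotypes. For *GPAT6* the log2FC was 4.45 in WT and 5.23 in *puchi-1*. *HTH*, an oxidoreductase needed for cutin and organ separation, rose in WT (log2FC 1.61) from 2.68, 3.32, and 5.42 CPM to 10.06, 12.8, and 12.0 CPM. In *puchi-1* *HTH* went from 4.81, 4.01, and 2.97 CPM to 3.35, 3.64, and 3.54 CPM (log2FC -0.17, adjusted p = 0.73). The 3 WT libraries at 36 hpg lay above all others, and the difference of -1.78 ± 0.47 did not pass (adjusted p = 0.355). In the fit of the 30 bend libraries 3 cutin genes passed, *DCR*, *HTH* (adjusted p = 0.00821), and *GPAT8*, an acyltransferase of cutin synthesis (difference -1.81 ± 0.35, adjusted p = 0.0234, against 0.461 with all 36 libraries). *BDG1*, which acts in cuticle formation, went from 0.0468 to 0.238 CPM in the WT libraries at 12 hpg to 3.84 to 5.29 CPM at 36 hpg, against 0.225 to 0.444 CPM in *puchi-1* at 36 hpg. The difference of the changes of *BDG1* did not pass in the main fit or in that of the 30 bend libraries. The median difference of the cutin list was -0.17, and its sign turned with the filter on low counts (0.67 with filterByExpr), so no direction is given for the list.

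Suberin genes, in contrast, rose in both genotypes. Of 17 genes, 10 (58.8%, against 18.9% of all genes) rose and 1 fell in WT, and 13 (76.5%, against 17.7%) rose and 1 fell in *puchi-1*. The median log2FC was 1.22 in WT and 1.75 in *puchi-1*, the difference lay above 0 for 15 of the 17, and 0 passed it (1, *MYB41*, at an unadjusted p under 0.05). *CYP86A1*, the hydroxylase of root suberin acids, rose from 34.1, 41.2, and 43.4 CPM to 1047.8, 736.9, and 780.5 CPM in WT. In *puchi-1* it rose from 7.73, 13.1, and 9.51 CPM to 452.4, 592.7, and 385.6 CPM. The mutant was lower at each time, and its log2FC of 5.55 against 4.43 in WT did not pass as a difference (1.12 ± 0.72, adjusted p = 0.849). *ASFT*, which adds ferulate to suberin, fell in both (log2FC -1.60 in WT and -0.93 in *puchi-1*). Over 25 genes of fatty acid elongation, 9 (36%, against 18.9% of all genes) rose and 4 fell in WT. In *puchi-1*, 5 (20%, near the 17.7% of all genes) rose and 3 fell. *KCS5* alone passed the difference, whose median was 0.17. The core reductase *KCR1* fell in WT (log2FC -0.72), and had -0.50 in *puchi-1* (adjusted p = 0.079). *KCS6*, an elongase of wax acids in shoots, rose in WT to 4.33, 5.52, and 5.06 CPM at 36 hpg, where *puchi-1* held 0.15, 0.727, and 0.109 CPM. These are levels at 36 hpg, and the difference of the changes of *KCS6* did not pass.

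**Figure D4:**
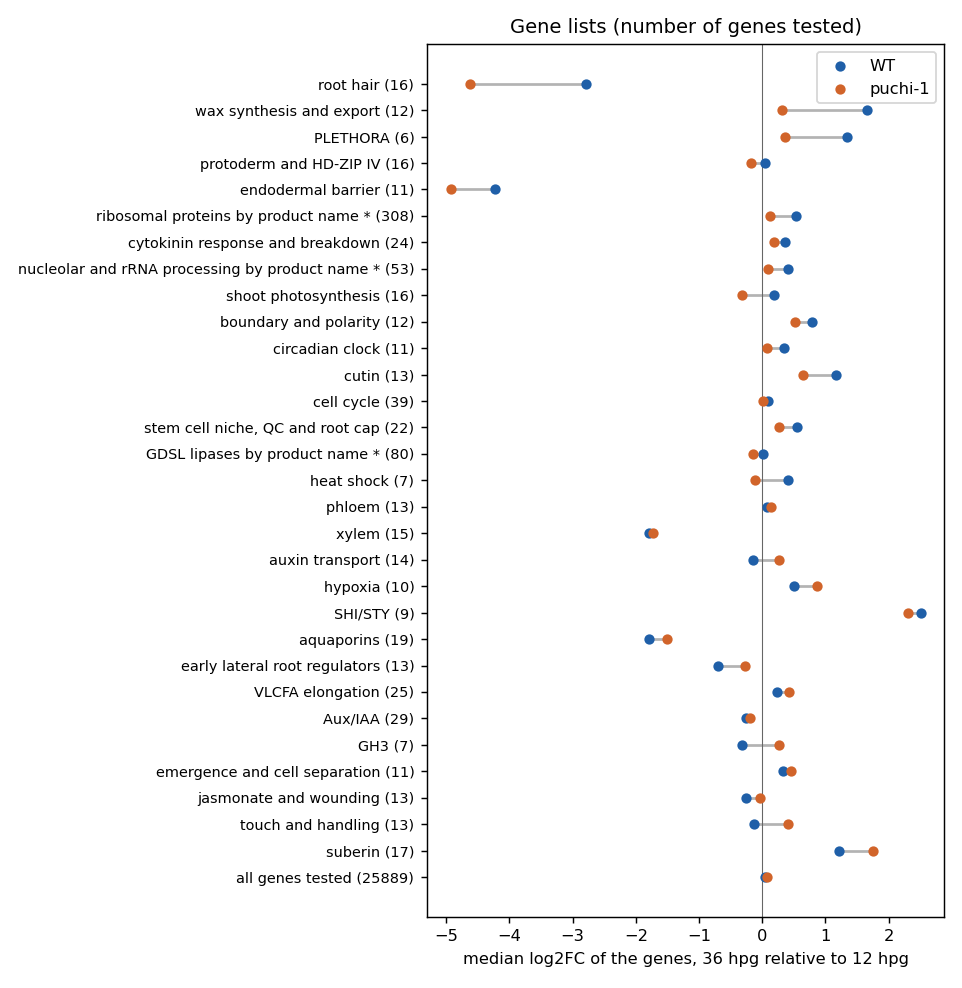
Median log2FC from 12 to 36 hpg of the genes of each list in WT (blue) and *puchi-1* (orange), with the number of genes tested in brackets, ordered by the median difference, and all genes tested set apart at the end of the list. An asterisk marks lists added after values were seen. Wax synthesis and export lies at 1.66 in WT and 0.31 in *puchi-1*, and suberin at 1.22 and 1.75.

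Several genes of the outer cell layer rose in WT from near 0. Of 16 protoderm and HD-ZIP IV genes, 6 (37.5%, against 18.9% of all genes) rose and 0 fell in WT. In *puchi-1*, 3 (18.8%, near the 17.7% of all genes) rose and 3 fell. The median difference was -0.58, with 13 of 16 below 0 and 0 that passed (5 at an unadjusted p under 0.05, beside 6.51% of all genes). *PDF1*, a classical marker of the outer layer, went from 0.13, 0.114, and 0.0234 CPM in WT at 12 hpg to 75.0, 89.9, and 90.6 CPM at 36 hpg. In *puchi-1* it was at 0, 0.132, and 0 CPM at 12 hpg and at 0.03, 0.687, and 0.163 CPM at 36 hpg. No *puchi-1* library came near the WT level at 36 hpg. *ATML1*, a master regulator of epidermal identity, was read at 2.94, 5.02, and 3.81 CPM in WT at 36 hpg and with a single read over the 3 *puchi-1* libraries at 36 hpg. Its paralog *PDF2* reached 15.2, 19.0, and 20.9 CPM in WT at 36 hpg and 0.165, 0.404, and 0.101 CPM in *puchi-1*. *PDF2* was thus also higher with time in *puchi-1*, with 0 reads in the libraries at 12 hpg and 44 at 36 hpg. That is at least 7.65-fold, against a floor of 3 counts over the group. The genes had few reads at 12 hpg in both genotypes, and their differences did not pass (adjusted p = 0.732 for *PDF1* and 0.291 for *ATML1*), although that of *ATML1* did in the fit of the 30 bend libraries (difference -9.3 ± 1.58, adjusted p = 0.00618). *HDG12*, of the same family and read in every library, rose in WT (log2FC 0.85), and its log2FC in *puchi-1* was -0.35 (difference -1.19 ± 0.31, adjusted p = 0.355).

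The SHI/STY family of zinc finger regulators rose in both genotypes from unequal levels. Of 9 genes, 8 rose in WT (88.9%, against 18.9% of all genes) and 7 rose in *puchi-1* (77.8%, against 17.7%), with median log2FC of 2.51 and 2.31. *SRS5* stood at 6.62, 4.69, and 4.91 CPM in WT at 12 hpg and rose to 26.6, 35.7, and 35.9 CPM. In *puchi-1* it rose from 0.0907, 0.0757, and 0.131 CPM to 3.26, 5.35, and 3.75 CPM, so the mutant libraries at 36 hpg reached about the WT range of 12 hpg. *SRS7* had 0 reads in the 3 *puchi-1* libraries at 12 hpg and 206 at 36 hpg, at least 35.8-fold higher against a floor of 3 counts over the group. *SRS4* went the other way, to 2.58, 2.79, and 3.86 CPM in WT at 36 hpg against 0.03, 0.0808, and 0.0467 CPM in *puchi-1*, and its difference of -5.64 ± 1.25 did not pass (adjusted p = 0.187), while it did in the fit of the 30 bend libraries (adjusted p = 0.00533). In that fit *SRS5* also passed, with a difference of 2.81 (edgeR, adjusted p = 0.00463, against 0.618 with all 36 libraries).

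The PLETHORA genes, AP2 factors that set up the root meristem, had differences below 0, none of which passed. The study had singled out members of this family in these libraries, so their direction is not independent evidence. Of 6 genes, 4 rose in WT, while 2 rose and 2 fell in *puchi-1*. The difference was below 0 for each of the 6, with a median of -0.91 that ranged from -1.39 without WT 12 hpg replicate 3 to -0.72 without *puchi-1* 12 hpg replicate 2, and 3 had an unadjusted p under 0.05. *PLT2* rose in WT from 0.606, 1.32, and 2.69 CPM to 4.94, 5.61, and 5.96 CPM, and in *puchi-1* went from 1.79, 2.04, and 0.752 CPM to 1.37, 2.2, and 2.07 CPM. *PLT5* and *PLT7*, of early primordia, fell in *puchi-1* (log2FC -1.18 and -1.39) and had -0.36 and 0.04 in WT. At 18 hpg the median difference of the family from 12 hpg was 0.70, of the opposite sign. *WOX5*, a marker of the quiescent centre, rose in WT (log2FC 1.30) from 1.97, 1.53, and 1.45 CPM to 3.49, 4.36, and 4.33 CPM. In *puchi-1* *WOX5* went from 3.11, 2.52, and 1.5 CPM to 1.49, 2.89, and 1.86 CPM, with a difference of -1.503 ± 0.35 that did not pass (adjusted p = 0.239) but did so in the fit of the 30 bend libraries (adjusted p = 0.0491). Over the 22 genes of the stem cell niche, quiescent centre, and root cap, 5 (22.7%) rose in each genotype, near the 18.9% of all genes in WT and 17.7% in *puchi-1*.

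Early LR regulators fell with time in WT. Of 13 genes, 8 fell in WT and 4 in *puchi-1*, beside 17.3% and 15.9% of all genes, and 0 rose in either. For the difference, 0 passed (4 at an unadjusted p under 0.05, beside 6.51% of all genes). *GATA23*, which acts in founder cell specification, fell in both genotypes, from 1.60, 1.96, and 1.43 CPM to 0.11, 0, and 0 CPM in WT and from 5.74, 4.22, and 4.51 CPM to 0.465, 0.343, and 0.568 CPM in *puchi-1*. *MAKR4*, a membrane-associated kinase regulator of founder cells, fell in WT (log2FC -1.19) from 17.7, 14.4, and 10.4 CPM to 7.19, 5.78, and 5.64 CPM. In *puchi-1* *MAKR4* was at 25.99, 22.1, and 17.59 CPM at 12 hpg and at 22.3, 24.97, and 27.1 CPM at 36 hpg, so that its groups overlapped, and the difference of 1.37 ± 0.49 did not pass (adjusted p = 0.642).

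More auxin response repressors rose in *puchi-1* than in WT. Of 29 *Aux/IAA* genes, 3 (10.3%, against 18.9% of all genes) rose and 9 fell in WT. In *puchi-1*, 8 (27.6%, against 17.7% of all genes) rose and 6 fell, but 0 passed the difference. At an unadjusted p under 0.05, 6 (20.7%) had a more positive change in *puchi-1* and 0 a more negative change, beside 3.27% and 3.24% of all genes. *IAA2* went from 45.9, 51.8, and 57.7 CPM to 40.3, 40.6, and 45.7 CPM in WT and rose from 54.5, 55.5, and 68.5 CPM to 101.6, 75.0, and 88.0 CPM in *puchi-1*. Its difference of 0.86 ± 0.19 was the smallest in p of the family and did not pass (adjusted p = 0.147). *IAA13*, *IAA3*, and *IAA4* also rose in *puchi-1* (log2FC 0.44, 0.64, and 0.52), with log2FC of 0.04, 0.07, and -0.14 in WT. The early induced amido synthetase *GH3.3* rose in *puchi-1* (log2FC 1.499) and had 0.01 in WT, with a difference of 1.49 ± 0.66 (adjusted p = 0.734). *CKX1*, which breaks down cytokinin, rose in both genotypes, from 1.54, 2.09, and 1.45 CPM to 4.61, 3.79, and 2.69 CPM in WT and from 1.43, 1.23, and 1.63 CPM to 7.61, 9.56, and 10.4 CPM in *puchi-1*. All *puchi-1* libraries at 36 hpg exceeded those of WT, and the difference of 1.56 ± 0.45 did not pass (adjusted p = 0.449), while it did in the fit of the 30 bend libraries (adjusted p = 0.0153).

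Of 39 cell cycle genes, 5 (12.8%, against 18.9% of all genes) rose and 4 fell in WT, 4 (10.3%, against 17.7% of all genes) rose and 7 fell in *puchi-1*, and 0 passed the difference (4 at an unadjusted p under 0.05), whose median was -0.16 with 30 of 39 below 0. *CYCB1;1*, a mitotic cyclin, went from 8.48, 8.26, and 10.5 CPM to 12.1, 13.8, and 13.3 CPM in WT and from 10.3, 9.80, and 7.49 CPM to 8.90, 12.0, and 10.9 CPM in *puchi-1*, with a difference of -0.32 ± 0.31 (adjusted p = 0.917).

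More ribosomal protein genes rose in WT than in *puchi-1*. This list and that of nucleolar proteins were made from product names after the 2 called genes of ribosome production were seen, and they describe those groups without a test. The 308 genes, called ribosomal protein genes here for their product names, include proteins of plastid and mitochondrial ribosomes and some other translation proteins such as the elongation factor *LOS1*. In WT 201 rose (65.3%, against 18.9% of all genes), and in *puchi-1* 18 rose (5.84%, against 17.7% of all genes). The median log2FC was 0.53 in WT and 0.13 in *puchi-1*, and the difference lay below 0 for 265 of the 308 (86%, against 45.8% of all genes), with a median of -0.33. The called gene AT5G59240 alone passed, and 72 (23.4%) had a more negative change in *puchi-1* at an unadjusted p under 0.05, against 3.24% of all genes. Summed over the list, WT libraries at 12 hpg held 21187.4, 24173.8, and 31653.4 CPM and WT libraries at 36 hpg 37914.3, 36069.3, and 37452.6 CPM. The *puchi-1* libraries held 35261.3, 31003.7, and 26074.1 CPM at 12 hpg and 30075.5, 37306.5, and 35626.7 CPM at 36 hpg. WT at 12 hpg thus held the lowest sums, its replicate 3 overlapped with *puchi-1* at 12 hpg, and the sums of the genotypes were close at 36 hpg. The median log2FC of *puchi-1* relative to WT was 0.27 at 12 hpg, 0.24 at 18 hpg, 0.29 at 24 hpg, 0.02 at 30 hpg, and -0.07 at 36 hpg.

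The rise in WT rested in part on single libraries. The number of ribosomal protein genes that rose was 100 without WT 12 hpg replicate 1 and 219 without WT 12 hpg replicate 3, while that in *puchi-1* was 8 without replicate 2 of *puchi-1* at 36 hpg and at most 22. The difference lay below 0 for 256 to 270 of the genes in those fits. Of 53 nucleolar and rRNA processing genes, 31 (58.5%) rose in WT and 12 (22.6%) in *puchi-1*, the difference lay below 0 for 39, and the called AT3G12860 alone passed. Site II stood in 48.4% of the 308 ribosomal promoters and in 32.1% of the 53 nucleolar promoters, beside the 14.4% of all promoters. The telo box stood in 15.6% and 15.1%, beside 4.06%.

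**Figure D5:**
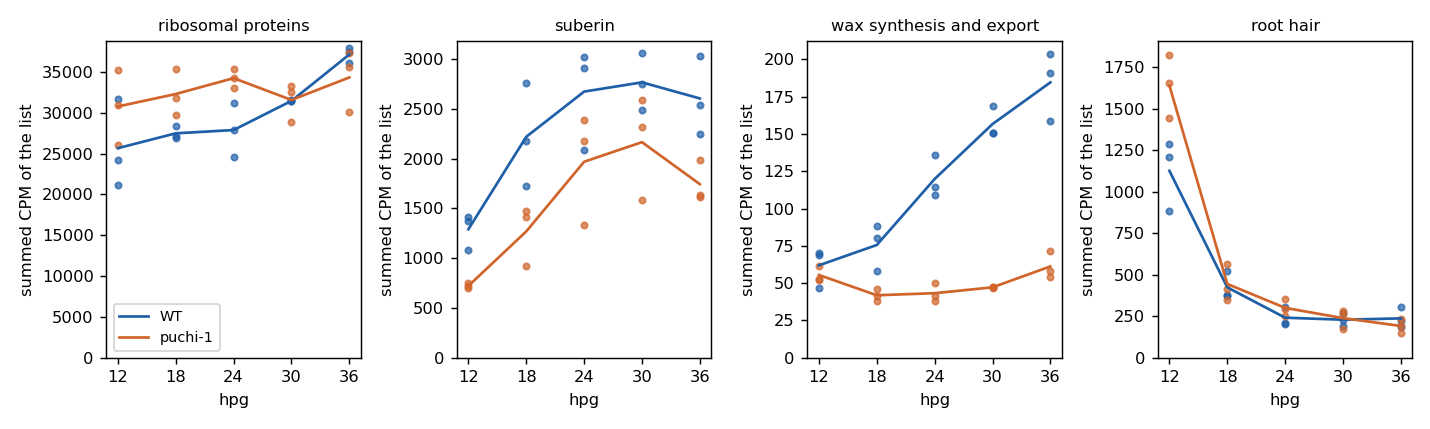
Summed CPM of ribosomal protein, suberin, wax, and root hair genes in each library (points) and as group means (lines) from 12 to 36 hpg in WT (blue) and *puchi-1* (orange). Wax sums at 36 hpg are 158.9 to 203.7 CPM in WT and 54.0 to 71.4 CPM in *puchi-1*, and root hair sums fall in both genotypes.

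Of the 385 kept genes, 131 rose and 254 fell. AT3G54780, a RING finger protein, rose from 3.18, 4.33, and 4.04 CPM to 17.2, 16.9, and 15.8 CPM in WT and from 4.99, 4.49, and 4.87 CPM to 20.6, 21.9, and 21.9 CPM in *puchi-1*. Its log2FC was 2.11 in WT and 2.17 in *puchi-1*, with a 95% interval of the difference of -0.61 to 0.72. *OFP7*, an ovate family protein, rose from 2.83, 4.14, and 4.14 CPM to 14.3, 11.9, and 9.75 CPM in WT and from 3.49, 2.84, and 3.5 CPM to 10.4, 13.6, and 10.9 CPM in *puchi-1*. The other kept rises of smallest p were AT1G78020, AT4G37550, AT2G18890 (a protein kinase), and AT1G33970, with log2FC from 1.27 to 1.85 in WT and from 1.17 to 2.1 in *puchi-1*. *IRX15*, which acts in xylan synthesis of secondary walls, fell from 23.9, 18.3, and 23.8 CPM to 3.67, 5.21, and 4.38 CPM in WT and from 20.7, 20.8, and 20.6 CPM to 3.96, 2.77, and 6.63 CPM in *puchi-1*. *GUT2*, also of xylan synthesis, *NADK1* (NAD kinase), *SRF7* (a receptor kinase), AT5G65990 (an amino acid transporter), and AT5G49900 fell alike, with log2FC from -1.41 to -1.03 in WT and from -1.63 to -1.26 in *puchi-1*. Of 15 xylem genes, 12 fell in WT and 11 in *puchi-1*, and 5 were among the kept genes, the largest number of any list.

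Boundary and polarity genes gave 1 kept gene, *KAN3*, among 12, of which 7 (58.3%) rose in WT and 6 (50%) in *puchi-1*, against 18.9% and 17.7% of all genes. *PHB*, a class III HD-ZIP regulator, rose in both (log2FC 1.04 in WT and 0.79 in *puchi-1*). *KAN4* rose in WT (log2FC 1.49) from 2.03, 2.80, and 4.09 CPM to 7.99, 7.87, and 9.23 CPM, and had -0.23 in *puchi-1*, with a difference of -1.72 ± 0.48 that did not pass (adjusted p = 0.404). Aquaporins, the water channels that are lowered around emerging primordia, fell in both genotypes. Of 19 genes, 12 fell in WT and 16 in *puchi-1*, beside 17.3% and 15.9% of all genes. Their median log2FC was -1.79 in WT and -1.50 in *puchi-1*, and 0 passed the difference, adjusted or not. *TIP1;1* fell from 3516.3, 2156.7, and 1570.0 CPM to 143.2, 135.8, and 64.7 CPM in WT and from 2190.9, 2151.2, and 2526.5 CPM to 240.0, 157.3, and 188.5 CPM in *puchi-1*.

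Markers of the parent root also moved with time. Of 16 root hair genes, 6 fell in WT and 12 in *puchi-1*, with summed levels of 882.9 to 1288.8 CPM in WT and 1443.2 to 1823.4 CPM in *puchi-1* at 12 hpg, and of 183.0 to 305.6 CPM and 151.3 to 234.0 CPM at 36 hpg. The median difference of -1.96 moved to -0.19 without WT 36 hpg replicate 1 and to -3.63 without *puchi-1* 36 hpg replicate 3, and turned to 0.15 with the month as a covariate, so no direction is given for it, and 0 passed, adjusted or not. Of 11 endodermal barrier genes, 7 fell in WT and 8 in *puchi-1*. Their summed levels were 798.5 to 1317.4 CPM in the libraries at 12 hpg and 193.6 to 284.6 CPM in those at 36 hpg, without a separation of the genotypes. *CASP1*, of the Casparian strip, fell from 293.5, 268.6, and 172.0 CPM to 12.2, 3.83, and 0.203 CPM in WT and from 268.9, 209.5, and 330.7 CPM to 1.74, 0.727, and 4.81 CPM in *puchi-1*. The WT libraries at 36 hpg thus differed more than 10-fold in this gene, and the part of these shifts in tissue makeup in any of the results was not tested. Touch genes summed to 190.3 CPM in WT 36 hpg replicate 1, against 1325.3 and 2081.3 CPM in the other libraries of that group, and 0 of 13 passed in any of the 3 comparisons. Jasmonate, shoot photosynthesis, and hypoxia genes likewise had 0 that passed the difference, adjusted or not, and heat shock, phloem, and clock genes had 0 that passed after adjustment, with 2, 1, and 2 at an unadjusted p under 0.05.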

How the data were processed

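The authors demultiplexed reads with bcl2fastq (version 2.20), aligned them to TAIR10 by TopHat2 2.1.1 on Bowtie2 2.3.5.1, sorted them in SAMtools 1.9, and obtained stranded gene counts from featureCounts 2.0.0. The deposited table holds their raw counts for 37973 rows, of which 87 carry no locus tag (0.07 to 0.362% of a library). Those rows were kept in the library sizes and, where they had at least 15 reads, in the tests. Libraries were poly(A) selected and stranded. Names and positions came from the TAIR10.1 annotation.

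The tests used edgeR 4.0.16 under R 4.3.3. After TMM scaling, the 12 groups of 36 libraries were fitted together by quasi-likelihood, with 24 residual degrees of freedom and a biological coefficient of variation of 0.268. Adjusted p followed Benjamini and Hochberg over 25889 genes within each comparison. Each SE was computed as the size of the log2FC divided by the square root of its F statistic, and the 95% intervals followed from it. A simulation with a single spread for all genes was also run, and no result given here rests on it. A lost change passed in WT but not in *puchi-1*, a reduced or enlarged change passed in both with the same sign, a reversed change passed in both with opposite signs, and a change in *puchi-1* only passed there but not in WT. Genes were named as the 10 of smallest p in the difference, list members that passed it, the 6 kept rises and 6 kept falls of smallest p, and *PUCHI*. Other list members were named beside the count of their list. The comparison and the 27 gene lists (412 genes tested) were chosen with earlier results of these data known, and 3 lists by product name (ribosomal, nucleolar, and GDSL lipase genes) and the promoter motifs after values were seen. DESeq2 (version 1.42.0) and other settings served as alternatives. Sample titles carry months whose meaning is not given in the sources used here. In replicate order, they were June, July, and August in WT at 12 hpg and none, July, and August in WT at 36 hpg. In *puchi-1* they were March, June, and July at 12 hpg and July, June, and July at 36 hpg. Among these groups August thus occurred in WT alone and March in *puchi-1* alone, so month and genotype were not balanced. The title of WT 12 hpg replicate 1 carried a later year than the other titles with a year. CPM values are counts divided by TMM-scaled library sizes.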

Additional observations from a re-analysis of the deposited data

Results flagged for a closer look

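A test of the difference found that the change from 12 to 36 hpg differed between the genotypes for 7 genes, at 3 libraries per group (edgeR, adjusted p under 0.05). The difference on the log2 scale, *puchi-1* change minus WT change, was -2.69 for *CER3*, -4.40 for *KCS5*, -2.41 for *DCR*, -2.32 for *IAMT1*, -1.40 for AT3G12860, -1.78 for AT5G59240, and 1.07 for AT5G66440. With the July libraries alone, the differences were -2.85, -4.67, -2.43, -2.25, -1.22, -1.83, and 1.05 in the same order, and none passed. Dixon's test for an outlying library was not applied to the groups of 3 libraries.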

How the results depend on the processing

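The count of 7 genes called in the difference depended on the tool and the samples that set the spread. It was 39 with DESeq2 on 36 libraries and 148 with DESeq2 on 12 libraries, 3 with edgeR on 12 libraries, 63 with edgeR on the 30 bend libraries, 0 on the July libraries (490 at an unadjusted p under 0.05), and 2 to 12 when 1 library was left out. It was 2 without WT 12 hpg replicate 1, *puchi-1* 12 hpg replicate 1, or *puchi-1* 36 hpg replicate 3, 3 without any WT 36 hpg library or *puchi-1* 36 hpg replicate 1, 4 without WT 12 hpg replicate 2, 5 without *puchi-1* 12 hpg replicate 2, 11 without WT 12 hpg replicate 3, and 12 without *puchi-1* 12 hpg replicate 3 or *puchi-1* 36 hpg replicate 2. Other size factors and filters gave 7 to 9 with all 7 genes among them, and months as a covariate gave 10 with 5 of the 7 (AT3G12860 and AT5G59240 did not pass). The 385 kept genes became 910 (DESeq2, 12 libraries), 827 (edgeR, 12 libraries), 807 (edgeR, 30 bend libraries), and 1 (July), and 273 to 332 when 1 library was left out. The July libraries left 8 called genes in WT and 1414 in *puchi-1*. Leaving out 1 library gave 2674 to 3217 in WT and 3104 to 3671 in *puchi-1*. The cause of these shifts was not tested. The July setting kept all 36 libraries in the fit, and its contrast rested on the libraries dated July, a single one in 3 of the 4 groups. No difference of the 10 genes of smallest p or *PUCHI* and no change of the 12 named kept genes reversed in sign in any alternative run for them. The median 95% half-width of 0.467 is not adjusted for the number of genes tested. Differences of a typical gene that exceed it could thus also fail to pass.

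The replicate number did not pair the samples, as deviations of same-numbered libraries correlated between -0.377 and 0.388 (median 0.02), and 3 of 18 pairs exceeded 0.1. With the replicate block, 6 genes were called in the difference (AT5G59240 had an adjusted p of 0.0591), 3364 in WT, 3795 in *puchi-1*, and 407 were kept.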

Other observations

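The fit of the 30 bend libraries, in which 63 genes were called in the difference, held 24 lost, 10 reduced, 17 reversed, and 6 enlarged changes and 6 in *puchi-1* only. Among lost changes, *LUP2*, a triterpene synthase, had a difference of -1.17 (adjusted p = 0.00106, against 0.187 with all 36 libraries), and *ADS1*, a fatty acid desaturase, of -4.19 (adjusted p = 0.00533, against 0.0651). *FIB2*, a fibrillarin that methylates ribosomal RNA, was reversed, with a log2FC of 0.76 in WT and -0.50 in *puchi-1* (adjusted p = 0.037, against 0.291). *YUC8*, an auxin synthesis enzyme, had a difference of 2.40 (edgeR, adjusted p = 0.0128, against 0.678) and *WRKY71* of 4.09 (adjusted p = 0.044, against 0.355). These genes were chosen after their values were seen.

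Over the 80 GDSL lipases by product name, a family that includes cutin and suberin polymerizing enzymes, 17 (21.2%, against 18.9% of all genes) rose and 15 fell in WT, and 15 (18.8%, against 17.7% of all genes) rose and 23 fell in *puchi-1*. The median difference was -0.13, and at an unadjusted p under 0.05, 8 (10%) had a more negative change, against 3.24% of all genes, and 1 (1.25%) a more positive change, against 3.27%. The gene AT3G16370, picked after values were seen, had a difference of -5.46 in the fit of the 30 bend libraries (edgeR, adjusted p = 0.00618, against 0.0757 with all 36 libraries).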
